A study of Homo sapiens with 12 samples.

Results

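The H3K27ac landscape of CEBPB knockout cells was compared with that of scramble control cells under DMSO vehicle, in RPMI 8226, an established human multiple myeloma cell line. The comparison took the 3 libraries titled as CEBPB knockout with DMSO and the 3 titled as scramble with DMSO, 6 of the 12 libraries of the series. The other 6 libraries came from the same knockout and scramble cells after 10 µM dexamethasone, 3 of each, and all 12 were collected after 2 h of treatment. H3K27ac was profiled by CUT&RUN, in which an antibody tethers a nuclease to chromatin and the released fragments are sequenced. Nothing in the labels states if the knockout was a single clone or a mixed population, how the gene was disrupted, or if a group's libraries were grown separately. The p-values therefore measure the spread between these libraries, which may be technical, and each contrast is between this knockout line and this scramble line. The labels name no further agent for either group.

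H3K27ac, acetylation of lysine 27 of histone H3, marks active promoters and active enhancers. Promoter marks sit at gene starts, while enhancer marks lie inside genes or between them and tend to differ more between cell types. CEBPB encodes C/EBPβ, a basic leucine zipper transcription factor that binds palindromic sites and acts in inflammatory gene expression, in the acute phase response and in myeloid differentiation. In plasma cells and myeloma cells C/EBPβ has been linked to the transcription factor network around IRF4 and PRDM1.

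The deposited lists of the 6 libraries held 46340 to 54727 usable peaks per library in knockout cells and 46049 to 56421 in scramble cells. They covered 58.2 ± 5.5 Mb in knockout and 58.9 ± 6.8 Mb in scramble libraries (SD, n = 3 each; exact permutation p = 0.8, two-sided, where 3 against 3 libraries cannot give less than 0.1). The share of covered bases within 1 kb of a protein-coding gene's start, here called promoter, was 28.1 ± 1.9% in knockout and 26.9 ± 2.0% in scramble libraries (exact p = 0.5). Intragenic bases, inside a gene but farther from its start, made up 43.4 ± 1.2% in knockout and 43.9 ± 1.1% in scramble libraries, and distal bases, outside genes, 28.5 ± 0.77% in knockout and 29.2 ± 0.88% in scramble libraries. None of these differences exceeded the spread between libraries. No count of reads is given, so depth is unknown and no counting interval can be had. At the promoters of 10 plasma cell markers, 9 had a peak in all 6 libraries, with SLAMF7 the exception, and the summed window coverage of these markers was 92.9 to 97.3 kb in knockout against 76.8 to 91.5 kb in scramble libraries. Markers of other cell types were divided. Of 14 T cell markers 6 had no promoter peak in any of the 6 libraries, including CD3D and CD3G, and 4 had one in all 6 (CD7, CD8A, CD8B and LCK). Of 15 myeloid markers 8 had none, including LYZ and MPO, and 3 had one in all (CD33, CD68 and S100A9). Of 15 mature B cell markers 7 had none, including MS4A1 and PAX5, and 5 had one in all (BLK, CD83, CIITA, CR2 and FCER2). Of 12 stromal and epithelial markers 7 had none, including COL1A2 and CDH1, and 5 had one in all (ACTA2, COL1A1, EPCAM, KRT18 and KRT8).

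Promoters were largely shared between the genotypes. Sites away from promoters were shared less, both between genotypes and between libraries of the same genotype. Sharing was measured for each pair of libraries by the Jaccard index, the sites present in both as a fraction of those present in either. Between libraries of different genotype its median was 0.854 at promoters, 0.375 at intragenic sites and 0.432 at distal sites (9 pairs each). Between DMSO libraries of the same genotype the medians were 0.892, 0.469 and 0.568 (6 pairs each). In each class the lowest same-genotype pair lay above the highest pair of different genotype. The library pairs share libraries, so no test is given for them.

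Across the genome 59557 regions were tested, each the stretch covered by peaks in at least 2 of the 12 libraries, valued as the mean fold enrichment over its bases with unlisted bases at 0. In the text below a region is said to be called when limma on log2(fold + 1) gave an adjusted p under 0.05 (Benjamini-Hochberg over all regions). By this rule 3522 regions (5.91%) were higher and 3744 (6.29%) lower in knockout, and 14225 had an unadjusted p under 0.05. Of the 11087 promoter regions tested, 373 (3.36%) were higher and 333 (3%) lower. Of the 28720 intragenic regions, 1643 (5.72%) were higher and 1617 (5.63%) lower. Of the 19750 distal regions, 1506 (7.63%) were higher and 1794 (9.08%) lower. Distal regions were 33.2% of those tested and 45.4% of those called, while promoter regions were 18.6% of those tested and 9.72% of those called. Groups did not overlap in 364 of the higher and 325 of the lower promoter calls, where 9.47% of all tested promoters were higher and 9.29% lower without overlap. The same held for 1618 and 1595 intragenic calls (12% and 10.1% of all tested) and for 1493 and 1779 distal calls (14.5% and 14.6% of all tested). Neighbouring regions share a locus and are not independent.

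**Figure D1:**
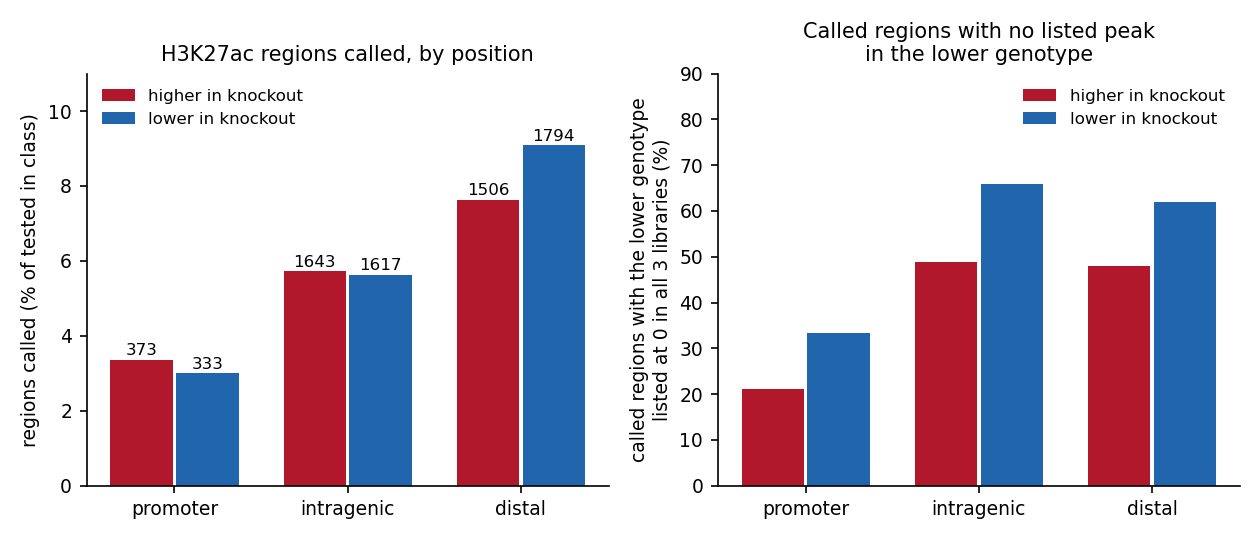
Left, regions called higher or lower in knockout as a percent of the regions tested in each class, with the number called above each bar. Right, the percent of called regions that had no listed peak in any of the 3 libraries of the lower genotype. Distal regions had the highest called share (7.63% higher, 9.08% lower) and promoters the lowest share with no peak in the lower genotype (21.2% of higher and 33.3% of lower calls).

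The classes also differed in the form of the change. At promoters 123 of the 373 higher calls (33.0%) and 103 of the 333 lower calls (30.9%) were under 0.5 in size on the log2(fold + 1) scale. A region's value joins the height of its peaks and the length they cover, and these were not separated. In scramble libraries 21.2% of the promoters called higher had no listed peak at all, and in knockout libraries 33.3% of those called lower had none. Away from promoters such calls were more common: 48.9% of higher and 65.8% of lower intragenic calls, and 48.1% of higher and 62.0% of lower distal calls, had no peak in any library of the lower genotype. Tested regions were also weaker there. Their median fold over the 6 DMSO libraries was 1.29 at intragenic and 1.64 at distal regions, against 4.07 at promoters. The part of this weakness in the shares at 0 was not tested. The median log2 difference of called regions was 0.90 for higher and -1.31 for lower calls at promoters, 1.62 for higher and -1.71 for lower calls at intragenic sites, and 1.65 for higher and -1.79 for lower calls at distal sites. A log2 difference against a group listed at 0 depends on the added constant of 1 and is not a fold change. The peak lists hold only regions above the caller's threshold, so a value of 0 says that no peak was listed, not that no acetylation was present.

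**Figure D2:**
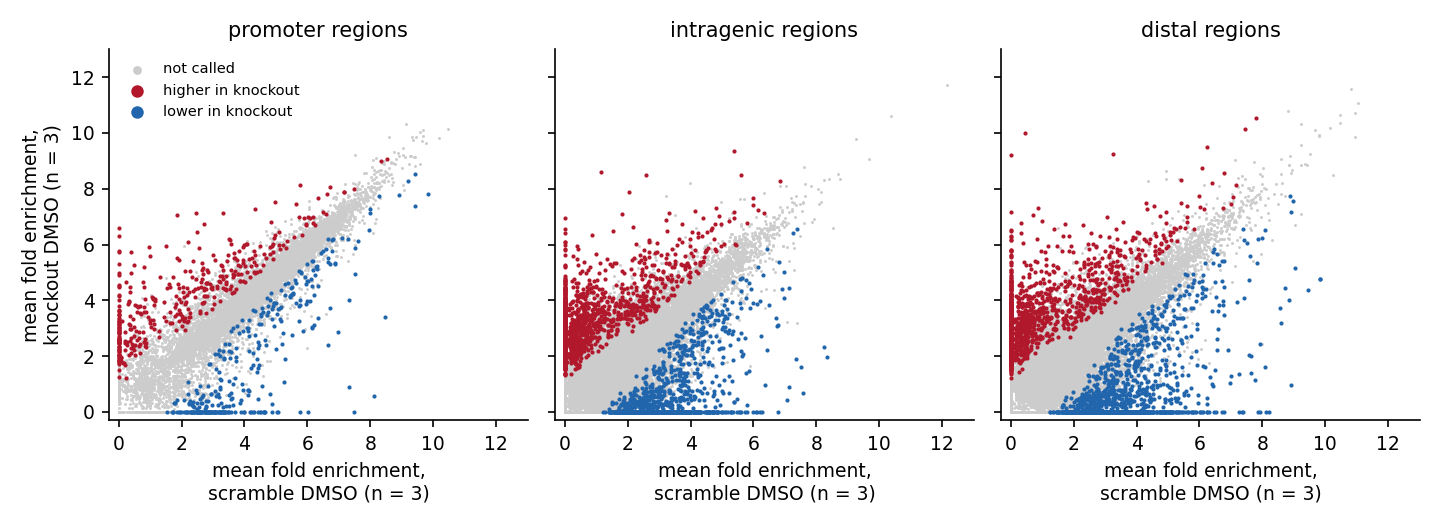
Mean fold enrichment of each tested region in knockout DMSO libraries (vertical axis, n = 3) against scramble DMSO libraries (horizontal axis, n = 3), for promoter, intragenic and distal regions. Called promoters include many close to the diagonal with signal in both genotypes, while called intragenic and distal regions gather along the 2 axes, where the other genotype has little or no listed signal.

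The promoters with the largest differences were switched between a strong peak and no listed peak. Their sequences are shown for 4 of them, the 2 most changed in each direction, from 250 bases before to 50 bases after the gene start, credited to RefSeq on GRCh38.p14 and written 5′ to 3′ on the gene's strand. Capitals mark matches to the C/EBP-type motif TTGCNNAA or its reverse complement TTNNGCAA. The RMDN2 window is chr2:37925037-37925336 (+), that of FRRS1 chr1:99766586-99766885 (-), that of PARP11 chr12:3873350-3873649 (-) and that of ARHGAP24 chr4:85474900-85475199 (+).
RMDN2: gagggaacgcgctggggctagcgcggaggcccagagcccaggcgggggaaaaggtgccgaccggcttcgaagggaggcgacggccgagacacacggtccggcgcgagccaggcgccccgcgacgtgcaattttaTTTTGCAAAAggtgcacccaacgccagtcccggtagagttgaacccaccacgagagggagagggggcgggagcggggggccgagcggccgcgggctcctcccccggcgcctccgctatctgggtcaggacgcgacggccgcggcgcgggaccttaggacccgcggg
FRRS1: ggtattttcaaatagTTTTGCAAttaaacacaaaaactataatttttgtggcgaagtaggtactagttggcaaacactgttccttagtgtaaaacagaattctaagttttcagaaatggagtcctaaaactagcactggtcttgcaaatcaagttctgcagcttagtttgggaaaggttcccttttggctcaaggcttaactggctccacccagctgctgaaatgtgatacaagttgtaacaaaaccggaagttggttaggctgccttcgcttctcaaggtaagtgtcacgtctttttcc
PARP11: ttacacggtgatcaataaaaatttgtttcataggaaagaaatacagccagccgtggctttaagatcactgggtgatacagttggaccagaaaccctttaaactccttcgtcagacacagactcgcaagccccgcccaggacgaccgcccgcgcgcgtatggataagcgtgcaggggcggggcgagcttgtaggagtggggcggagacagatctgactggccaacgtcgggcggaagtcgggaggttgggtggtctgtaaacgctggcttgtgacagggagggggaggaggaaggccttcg
ARHGAP24: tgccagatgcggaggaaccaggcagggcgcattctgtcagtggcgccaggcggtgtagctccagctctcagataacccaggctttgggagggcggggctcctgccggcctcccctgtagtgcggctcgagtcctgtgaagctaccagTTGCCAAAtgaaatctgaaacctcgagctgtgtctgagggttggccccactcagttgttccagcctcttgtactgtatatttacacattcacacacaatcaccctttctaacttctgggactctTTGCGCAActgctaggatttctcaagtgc

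The RMDN2 window held 2 overlapping matches that share their bases, the FRRS1 window 1, the PARP11 window 0 and the ARHGAP24 window 2 apart from each other, so matches occurred in both directions of change. A match is a string of letters and not a measured binding site, and a window without these letters says nothing about binding. Among the 333 promoters called lower, 267 had a sequence in the RefSeq table and 21 of them (7.87%) held a match, against 577 (6.64%) of the 8688 tested promoters with a sequence and 8.37% of all 15813 promoters in the table. Of the 373 promoters called higher only 75.6% had a sequence, so the same share is void for them. Median GC content was 65% in the lower promoters and 65.7% in all tested promoters with a sequence.

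RMDN2, a regulator of microtubule dynamics, had the largest promoter gain. Its region on chromosome 2 (37924965 to 37925925) had mean fold enrichments of 5.88, 6.53 and 7.35 in the knockout libraries and was listed at 0 in all 3 scramble libraries (log2 difference 2.90 ± 0.16 SE, limma adjusted p = 6e-06). FRRS1, a ferric reductase, had 3.96, 8.64 and 6.32 in knockout libraries and 0 in scramble libraries. TMEM17, a protein of the ciliary transition zone, followed with 5.98, 5.84 and 5.54 in knockout libraries, again against 0 in scramble libraries. MSRB3, a methionine sulfoxide reductase, FAM13A, which carries a GTPase-activating domain, and FRY, a scaffold of NDR kinases, completed the 6 largest gains, with log2 differences of 2.74, 2.63 and 2.57 and no listed peak in scramble libraries. All 6 were taken from calls whose groups do not overlap, and FRRS1 was the more variable of the 3 given by library.

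PARP11, a mono-ADP-ribosyltransferase, had the largest promoter loss. Its region on chromosome 12 (3872735 to 3873580) was listed at 0 in all 3 knockout libraries, against 7.77, 7.65 and 7.06 in scramble libraries (log2 difference -3.07 ± 0.14 SE, limma adjusted p = 2.8e-06). ARHGAP24, a GTPase-activating protein for Rac, had 0, 0 and 1.76 in knockout libraries and 8.24, 8.99 and 7.16 in scramble libraries. TMC5, of the transmembrane channel-like family, was listed at 0 in knockout libraries, against 5.45, 6.92 and 5.65 in scramble libraries. ZNF254, a KRAB-type zinc finger gene, ARHGAP42, a GTPase-activating protein of the cytoskeleton, and CEP126, a centrosomal protein, were likewise listed at 0 in every knockout library, with log2 differences of -2.74, -2.58 and -2.57. The ARHGAP24 difference was the only one of these 12 promoter calls with a value above 0 in the lower genotype.

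**Figure D3:**
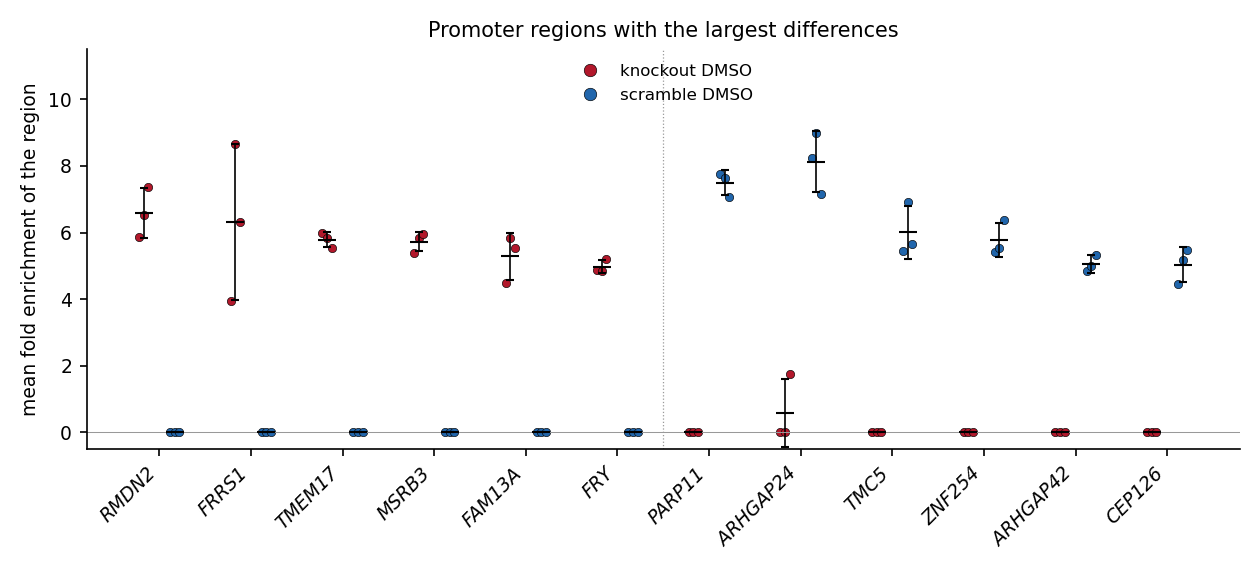
Mean fold enrichment of the 6 promoter regions with the largest gain and the 6 with the largest loss in knockout. Points are libraries (knockout DMSO left, scramble DMSO right within each gene), and bars are means with SD (n = 3 each). The genes were chosen among calls whose groups do not overlap, and 11 of the 12 have no listed peak in the lower genotype.

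Below these extremes, called promoters included genes of immune signalling. Beyond the 6 largest changes of each class and direction and up to 3 windows per gene list, the genes named here and below were picked after their values were seen. Of 16 tested promoters of chemokines and their receptors 5 were higher and 0 lower, beside 3.36% higher and 3% lower over all tested promoters. The promoters of CCL5, CCL3 and CCL4 lie in a run of 5 consecutive higher regions over 239 kb of chromosome 17. These 3 calls are therefore not independent. CCL3 and CCL4, neighbouring genes of inflammatory chemokines, had 3.59, 2.85 and 3.03 and 2.01, 2.90 and 2.88 in knockout libraries and were listed at 0 in scramble libraries (log2 differences 2.04 and 1.82). CCL5, a chemokine that attracts T cells, had 5.66, 4.90 and 5.75 in knockout against 2.75, 1.28 and 1.76 in scramble libraries (1.16, adjusted p = 0.044). CCR2, the receptor of CCL2, had 2.32, 2.61 and 2.08 in knockout and 0 in scramble libraries (1.67). CXCL8, the neutrophil attractant, had 3.07, 1.90 and 3.75 in knockout against 1.69, 0 and 0 in scramble libraries (1.54, adjusted p = 0.013). In all 5 the knockout libraries lay above the scramble libraries. With only peaks of −log10 q of at least 2 the CCL3 and CCL4 promoters no longer passed (1.38 and 1.80). The CCL5 call ended without any 1 of knockout libraries 1, 2 and 3 (1.12, 1.21 and 1.16) or scramble libraries 2 and 3 (1.00 and 1.12). The CXCL8 call ended without knockout library 3 (1.40) or scramble library 2 or 3 (1.34 each), and with only the 6 DMSO libraries.

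Promoters of 2 interleukin 1 genes were also called. IL1B, the inflammatory cytokine itself, had a region 0.653 kb from its start at 3.09, 4.15 and 3.25 in knockout and 0 in scramble libraries (2.15 ± 0.25 SE, adjusted p = 0.00021). IL1RN, the receptor antagonist of the same pathway, had 2.35, 1.62 and 2.74 in knockout against 1.47, 0 and 0 in scramble libraries (1.37, adjusted p = 0.012). Among 26 promoters of interferon-stimulated genes 2 were higher and 0 lower, beside 3.36% and 3% of all promoters. IFITM1, a membrane protein that restricts viral entry, had 3.87, 3.64 and 3.32 in knockout and 0 in scramble libraries (2.19), and GBP2, a guanylate-binding GTPase, had 3.03, 1.89 and 2.5 in knockout and 0 in scramble libraries (1.75). The GBP2 call ended when any 1 of the 6 libraries was left out (1.63 to 1.86), and that of IL1B with only the stronger peaks (1.46). The IL1RN call ended when only the 6 DMSO libraries were fitted (1.30, adjusted p = 0.093) and by the share of the region covered (2.35, adjusted p = 0.061).

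Antigen presentation promoters went in both directions. HLA-DRA, the α chain of the MHC class II molecule HLA-DR, was listed at 0 in knockout, against 3.54, 3.58 and 3.30 in scramble libraries (-2.16, adjusted p = 0.0018). HLA-DOB, a modulator of class II peptide loading, was the opposite, with 3.16, 2.77 and 3.06 in knockout and 0 in scramble libraries (1.98, adjusted p = 0.0094). With only the stronger peaks the HLA-DOB call was lost (1.33). Reads from the near-identical HLA genes can be misassigned, so their values are uncertain.

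Of 33 tested promoters of plasma cell and myeloma genes 1 was higher and 3 lower, beside 3.36% and 3% of all promoters. BCL2 of the BCL2 family list, the antiapoptotic protein that venetoclax targets, had 3.85, 3.93 and 3.99 in knockout against 2.58, 2.69 and 2.80 in scramble libraries (0.41 ± 0.07 SE, adjusted p = 0.0018). ITGA4, the α4 integrin subunit that myeloma cells use to bind stroma, had 4.94, 4.86 and 4.86 in knockout against 3.03, 3.13 and 3.71 in scramble libraries (0.45). IKZF1, the lymphoid transcription factor degraded under lenalidomide, was lower with 1.05, 0.853 and 1.31 in knockout against 2.53, 2.13 and 1.98 in scramble libraries (-0.84, adjusted p = 0.018). NCAM1, the adhesion molecule CD56 of malignant plasma cells, lost its promoter peak, with 0 in all knockout libraries against 3.32, 3.74 and 4.94 in scramble libraries (-2.30, adjusted p = 9.2e-05). BIRC3, a regulator of NF-κB signalling and cell death, had 4.25, 4.65 and 4.95 in knockout against 4.93, 5.93 and 6.05 in scramble libraries (-0.24, adjusted p = 0.027), but it turned to 0.39 after centring on neighbours and to 0.30 by the share of the region covered, and did not pass without knockout library 1 or 2 or scramble library 2 or 3 (-0.25 to -0.19). Once each region was centred on its neighbours, the calls of BCL2 (0.23), ITGA4 (0.32) and IKZF1 (-0.70) no longer passed, while that of NCAM1 did.

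Of 32 tested promoters of glycolysis and hypoxia genes 0 were higher and 3 lower, beside 3.36% and 3% of all promoters. EGLN3, a HIF prolyl hydroxylase, had a log2 difference of -2.02. BNIP3, a mitophagy receptor induced by hypoxia, had 2.26, 3.48 and 2.54 in knockout against 6.02, 4.72 and 5.82 in scramble libraries (-0.82), a call that ended with only the stronger peaks (-0.83, adjusted p = 0.21) and by the share of the region covered (-0.61). PFKFB3, which makes the activator of phosphofructokinase, had 2.56, 2.34 and 2.62 in knockout against 3.97, 4.39 and 4.97 in scramble libraries (-0.64). PHGDH, the first enzyme of serine synthesis, belonged to the amino acid list and was higher, with 1.71, 2.86 and 3.13 in knockout and 0 in scramble libraries (1.79).

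The largest intragenic changes lay in genes of varied roles. The largest gain lay in SH3KBP1, an endocytic adaptor, 76.9 kb from its start, with 7.22, 6.22 and 7.37 in knockout and 0 in scramble libraries (2.97 ± 0.15 SE, adjusted p = 3.4e-06). NOL10 and TAF1B, both nucleolar factors on chromosome 2, had gains of 2.90 and 2.87. CASK, a synaptic scaffold kinase, and DMD, which encodes dystrophin, had gains of 2.81 each, that of DMD 1476 kb from its start, and KATNAL2, a katanin-like microtubule protein, had 2.79. All 6 of these regions were listed at 0 in every scramble library.

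Among intragenic losses, the region in ZNF676 was listed at 0 in knockout libraries, against 5.69, 6.53 and 8.16 in scramble libraries (-2.93). RYR2, the calcium release channel of the sarcoplasmic reticulum, had a region at 0 in knockout libraries and at 5.77, 6.62 and 6.25 in scramble libraries (-2.83 ± 0.16 SE, adjusted p = 6e-06). NKAIN2, a partner of the sodium pump, WDFY3, an autophagy adaptor, and GRIA4, a glutamate receptor subunit, were listed at 0 in knockout libraries as well (-2.83, -2.82 and -2.79). DOCK1, an exchange factor for Rac, had 0, 0 and 1.34 in knockout against 6.91, 6.84 and 7.43 in scramble libraries (-2.79).

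Several genes changed at many intragenic sites at once. On the higher side, 21 of 36 tested regions inside L3MBTL4 were called, 13 of 21 inside STARD13, a GTPase-activating protein, 12 of 23 inside MCC, 9 of 10 inside NEDD9, a scaffold of focal adhesions, and 8 of 11 inside FYN, a SRC-family kinase. On the lower side, the counts were 31 of 53 inside AUTS2, 29 of 60 inside DSCAM, a neuronal adhesion molecule, 29 of 45 inside RYR2, 26 of 63 inside RBFOX1, a splicing factor, and 18 of 32 inside MECOM, a zinc finger transcription factor. The background for any intragenic region was 5.72% higher and 5.63% lower. Taken over regions, with a gene counted once for each of its regions, the median host gene length was 284 kb for lower regions. It was 145 kb for higher regions and 107 kb for all tested intragenic regions. Lower regions also lay far from the gene start, with medians of 79.7 kb for lower, 46.7 kb for higher and 36.5 kb for tested regions.

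Intragenic calls were also counted in TNF superfamily and BCL2 family genes, beside 5.72% higher and 5.63% lower over all intragenic regions. In the TNF superfamily 4 of 44 regions were higher and 3 lower. In the BCL2 family 5 of 36 were higher, all in BCL2 itself, and 1 was lower. BCL2 had 5 intragenic regions called higher, at 6.31 to 131 kb from its start. The nearest of them had 3.03, 2.65 and 2.80 in knockout and 0 in scramble libraries (1.92). TNFSF8, which encodes the CD30 ligand, had 2 intragenic regions with 2.93, 2.87 and 3.06 and 4.69, 4.18 and 4.32 in knockout libraries, both at 0 in scramble libraries. FASLG, the ligand of the FAS death receptor, had 3.5, 2.92 and 2.29 in knockout and 0 in scramble libraries (1.90). TNFRSF1A, a TNF receptor, went the other way, with 0 in knockout libraries against 3.25, 2.29 and 3.00 in scramble libraries (-1.94).

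Distal regions were called most often and had the largest median differences. A region 446 kb from ACO1 (chromosome 9, 31937594 to 31938356), whose product is an iron-sensing aconitase, had 8.85, 9.14 and 9.61 in knockout and 0 in scramble libraries (3.33 ± 0.12 SE, adjusted p = 5.3e-07). A region nearest to SIM1, a developmental transcription factor, had 7.28, 6.91 and 7.35 in knockout and 0 in scramble libraries (3.02). Other gains lay nearest to the gene model LOC124906010, to ATP10B, a phospholipid flippase, to AARD and to DACH1, a repressor, with log2 differences of 3.05, 2.88, 2.88 and 2.86. Naming a distal region by its nearest gene is by position alone and does not say which gene it acts on.

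The largest distal loss lay 34.2 kb from P2RY10, a lysophospholipid receptor of lymphocytes on the X chromosome, with 0 in knockout libraries against 7.86, 8.20 and 8.53 in scramble libraries (-3.18 ± 0.14 SE, adjusted p = 2.1e-06). A region 1032 kb from NCAM2, a neural adhesion molecule, was listed at 0 in knockout libraries, against 9.34, 7.16 and 7.83 in scramble libraries (-3.16). Regions nearest to POU3F4, PI15, AUTS2 and GALR1 had log2 differences of -3.14, -3.12, -3.04 and -3.04, each at 0 in every knockout library. Lower distal regions lay farther from the nearest gene than others, with a median of 99.2 kb, against 40.6 kb for higher and 36.5 kb for tested distal regions, and 17.3% of them were over 500 kb away, against 4.78% of higher and 6.82% of tested regions.

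Distal calls were also counted by the function of the nearest gene, beside 7.63% higher and 9.08% lower over all distal regions, with no test of the lists. Of 74 distal regions nearest to chemokine and chemokine receptor genes, 11 were higher and 3 lower. A region 276 kb from CXCR4, the bone marrow homing receptor, had 3.27, 2.91 and 3.20 in knockout and 0 in scramble libraries (2.03). Of 37 distal regions near antigen presentation genes 6 were higher and 0 lower, among them a region 13.9 kb from HLA-E, a ligand of natural killer cell receptors, with 2.77, 2.99 and 2.70 in knockout against 0.633, 0 and 0 in scramble libraries (1.86). TNFRSF10B, a TRAIL death receptor, had a distal region at 5.08, 5.59 and 5.18 in knockout against 1.78, 1.1 and 1.18 in scramble libraries (1.52). BCL2A1, an antiapoptotic BCL2 relative and NF-κB target, had 3 higher distal regions, the nearest at 4.99, 3.89 and 3.96 in knockout against 1.81, 1.45 and 0 in scramble libraries (1.53). The calls of BCL2A1 and of CXCR4 did not hold throughout: the first ended without knockout library 1 (1.42) or 2 (1.57), and the second with only the stronger peaks (1.37).

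The 46 distal regions nearest to NF-κB and inflammatory genes had 3 higher and 4 lower calls, near the 7.63% and 9.08% over all distal regions. A region 22.7 kb from NFKB1, which encodes the p105 precursor of p50, was listed at 0 in knockout libraries, against 4.32, 4.48 and 3.74 in scramble libraries (-2.37 ± 0.21 SE, adjusted p = 5e-05). A region 5.18 kb from BCL3, an atypical IκB protein, had 4.23, 3.94 and 4.44 in knockout against 5.24, 5.72 and 5.56 in scramble libraries (-0.32). Of 227 distal regions near cadherin genes 73 were lower and 13 higher, and 24 of the 73 lay at the single locus of FAT1, where 33 distal regions were tested. Distal regions near B and T lineage transcription factors had 31 lower and 11 higher calls of 173, with 19 of the 34 regions near ETS1, a lymphoid transcription factor, lower.

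The CEBPB gene itself kept its promoter mark. Its promoter region on chromosome 20 (50190073 to 50193426) had 3.06, 3.30 and 3.32 in knockout against 3.16, 3.65 and 3.53 in scramble libraries (-0.09 ± 0.07 SE, adjusted p = 0.54), and the groups overlapped. H3K27ac at the gene does not measure the loss of the protein or of the coding sequence, so it is no check of the knockout. Of the 5 tested distal regions nearest to CEBPB, 2 were called lower. The region 153 kb away was listed at 0 in knockout libraries, against 2.23, 2.95 and 2.25 in scramble libraries (-1.75, adjusted p = 0.015), and the region 157 kb away at 0 in knockout libraries, against 1.56, 1.61 and 1.32 in scramble libraries (-1.19, adjusted p = 0.0074). Within the family, the promoter of CEBPD, a related C/EBP factor induced in acute inflammation, was higher, with 3.51, 4.76 and 5.18 in knockout against 1.36, 2.60 and 2.19 in scramble libraries (1.00, adjusted p = 0.016). The CEBPD call ended without knockout library 2 (0.95) or 3 (0.93), with only the 6 DMSO libraries and with only the stronger peaks. It also ended at equal covered length and by the share of the region covered. The call of the region 153 kb from CEBPB ended without scramble library 2 (-1.64), and that of the region 157 kb away by the share of the region covered.

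Most called regions stood alone, while others formed runs. No neighbouring tested region was called the same way for 2394 (68.0%) of the higher and 1997 (53.3%) of the lower regions. Of the 3744 lower regions, 626 (16.7%) lay in 120 runs of at least 4 consecutive tested regions called the same way, and of the 3522 higher regions, 197 (5.59%) lay in 41 such runs. The longest lower run had 14 regions over 433 kb from AUTS2 to GALNT17 on chromosome 7, with mean values of 0 in all knockout libraries and 2.60, 2.26 and 2.05 in scramble libraries. The longest higher run had 11 regions over 144 kb at NEDD9 on chromosome 6, with 3.44, 3.26 and 3.20 in knockout against 0.209, 0 and 0 in scramble libraries. FYN had 9 higher regions over 154 kb, with 2.51, 2.96 and 3.04 in knockout against 0, 0 and 0.0783 in scramble libraries. MECOM had 9 lower regions over 71.5 kb, with 0 in knockout libraries against 3.35, 2.58 and 2.92 in scramble libraries.

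Promoters moved with the rest of their gene more often than against it. Of the 373 genes with a higher promoter, 204 had a tested intragenic region and 76 of these (37.3%) had one called higher, while 8 (3.92%) had one called lower. Over all tested promoters with such a region the shares were 12.6% higher and 8.56% lower. For the 333 genes with a lower promoter, 90 of 191 (47.1%) had an intragenic region called lower and 21 (11.0%) one called higher. Distal regions assigned to the same gene followed in 56 of 181 genes (30.9%) for higher promoters and in 65 of 170 (38.2%) for lower promoters, against 15.9% and 13.6% over all tested promoters. All 3 classes were called higher in 24 of the 373 genes, among them BCL2, FYN, NEDD9 and SULF1. They were called lower in 40 of the 333 genes, among them FAT1, RYR2, NCAM1, MECOM and THRB. Over the 10789 genes with a tested promoter, called or not, the intragenic and distal classes were both called higher in 100 and both lower in 100.

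The called share differed between chromosomes, beside 5.91% higher and 6.29% lower over all. Chromosome 13 had the highest share of higher calls, 140 of 962 regions (14.6%), with 78 (8.11%) lower. Chromosome 18 had 178 of 1399 (12.7%) higher and 98 (7.01%) lower. Chromosome 4 had the highest share of lower calls, 247 of 1940 (12.7%), with 140 (7.22%) higher, and chromosome 7 had 362 of 3449 (10.5%) lower and 149 (4.32%) higher. In blocks of 10 Mb, 24 of 225 had a median log2 difference over all tested regions above 0.1 and 18 below -0.1. The lowest block was 60 to 70 Mb of chromosome 7, with a median of -0.71 and 60 lower against 1 higher call among 197 regions. The block at 180 to 190 Mb of chromosome 4, which holds FAT1, had -0.58, and that at 230 to 240 Mb of chromosome 1, which holds RYR2, had -0.36. The highest was 50 to 60 Mb of chromosome 18, with 0.47 and 28 higher against 1 lower call among 219 regions. The part of these blocks in the results was not tested beyond centring each region or gene window on its neighbours along the chromosome. Several window calls ended then, as stated beside them.

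To describe functions beyond the largest changes, peaks were also summed over each gene and 25 kb on either side, and 17155 such windows were tested with limma on log2(bp + 500). In knockout 648 windows (3.78%) were higher and 608 (3.54%) lower, 7.32% in either direction, and the median difference over all windows was 0.01. The 36 lists below were compared with these shares by count alone. Overlapping windows share peaks, so neighbours such as CCL3 and CCL4 are not independent.

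**Figure D4:**
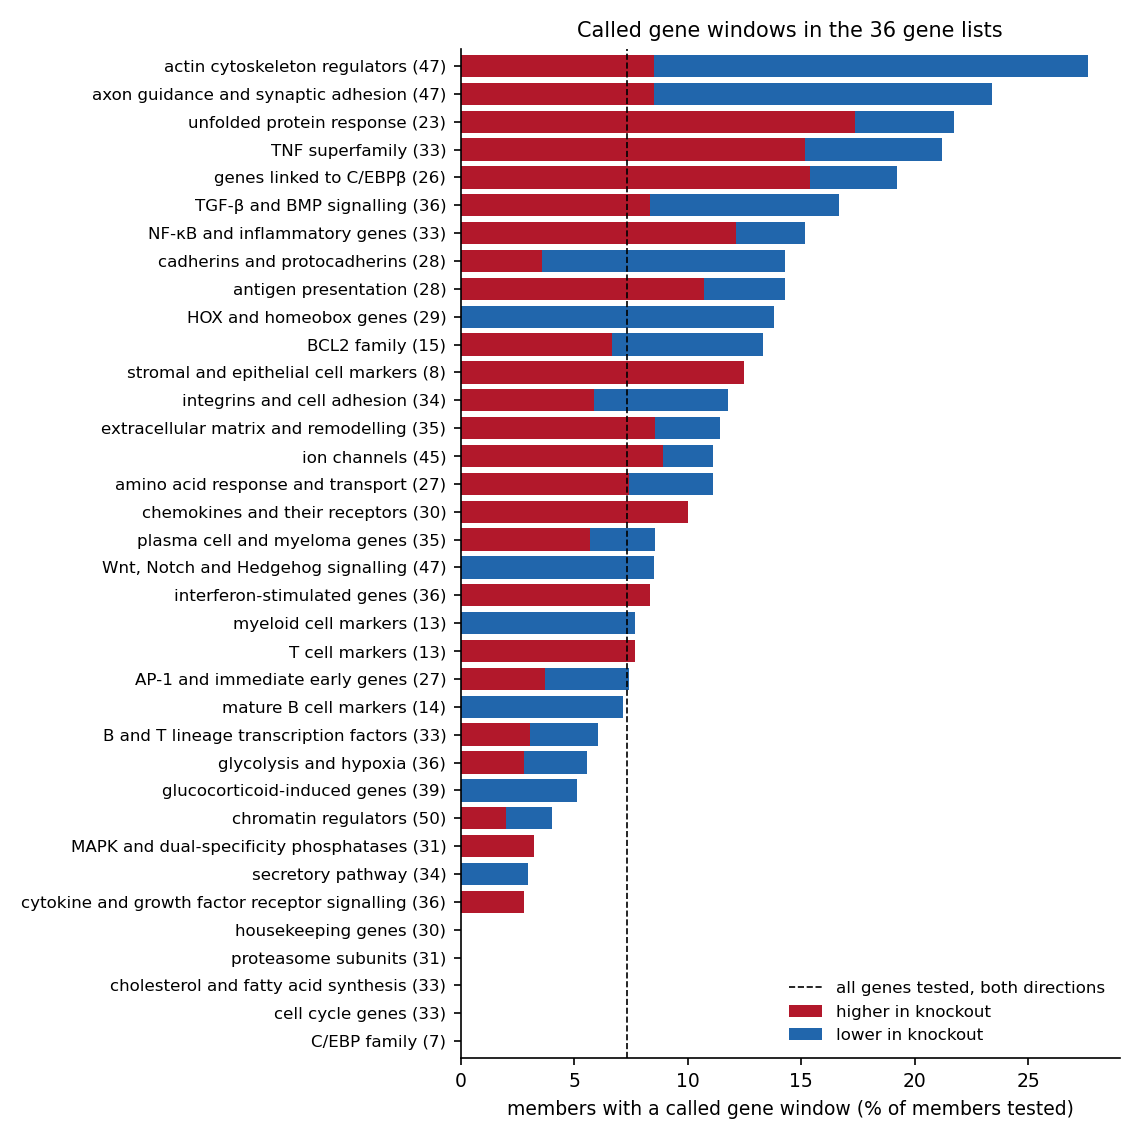
Percent of the tested members of each gene list whose window was called, split into higher and lower in knockout, with the number of tested members in parentheses and the share over all 17155 tested genes as a dashed line (7.32%). Actin cytoskeleton regulators (27.7%) and axon guidance genes (23.4%) had the highest shares, and 5 lists had no call.

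Actin cytoskeleton regulators had the highest share called, 4 higher and 9 lower of 47 (27.7%). Windows span whole genes, so long genes hold more regions, and the lists were not matched for length. Tested intragenic regions numbered 265 in 40 actin genes and 294 in 40 axon guidance genes, against 25 in 14 proteasome genes. Chromatin regulators, with 241 in 40 genes, had 4% of windows called. The part of gene length was not tested. DOCK5 and DOCK1, exchange factors that activate Rac, lost nearly all coverage: DOCK5 had 0 kb in all knockout libraries against 14.3, 10.7 and 14.3 kb in scramble libraries (-4.72 ± 0.13 SE, adjusted p = 1.3e-09). DOCK1 had 0.608, 0 and 0.742 kb in knockout against 15.4, 12.8 and 12.8 kb in scramble libraries (-4.04). PHACTR3, which binds actin and protein phosphatase 1, had 2.44, 1.17 and 1.37 kb in knockout against 5.76, 6.50 and 6.34 kb in scramble libraries (-1.67). The higher members included ARHGEF6 (2.13), whose window overlaps that of CD40LG, VAV3 (0.81) and ELMO1 (0.74), which also act in Rac signalling. The ELMO1 call ended after centring on neighbours (0.53) and without knockout library 1 (0.70) or 2 (0.69) or scramble library 2 (0.61) or 3 (0.73).

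Axon guidance and synaptic adhesion genes had 4 higher and 7 lower windows of 47 (23.4%), and a median of -0.13. UNC5C, a netrin receptor, had 0 kb in knockout libraries against 31.9, 15.1 and 17.1 kb in scramble libraries (-5.29). CNTN1, a neuronal contactin, and ROBO1, a SLIT receptor, gained coverage instead: CNTN1 had 7.17, 5.86 and 6.54 kb in knockout and 0 kb in scramble libraries (3.72), and ROBO1 had 3.87, 3.45 and 3.6 kb in knockout against 0.273, 0 and 0 kb in scramble libraries (2.95). Cadherins had 1 higher and 3 lower windows of 28. FAT1, an atypical cadherin, had 0, 0.379 and 0.340 kb in knockout against 36.2, 28.3 and 35.0 kb in scramble libraries (-5.52), and CDH4 had 0 kb in knockout against 18.3, 18.9 and 25.9 kb in scramble libraries (-5.36). CDH2, which encodes N-cadherin, had 4.07, 2.74 and 3.31 kb in knockout against 25.2, 15.2 and 15.0 kb in scramble libraries (-2.27).

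The TNF superfamily had 5 higher and 2 lower windows of 33 (21.2%), with a median of 0.17. Among ligands, TNFSF8 had 4.17, 4.49 and 5.58 kb in knockout and 0 kb in scramble libraries (3.31 ± 0.13 SE, adjusted p = 1.4e-08), and TNFSF10, which encodes TRAIL, had 3.26, 3.98 and 4.11 kb in knockout against 2.05, 0.746 and 0.743 kb in scramble libraries (1.45). TNFSF14, which encodes LIGHT, was lower (-1.39), a call that ended without any 1 of the knockout libraries (-1.40 to -1.38) or without scramble library 2 (-1.37) or 3 (-1.09), and after centring on neighbours (-1.29). Among receptors, TNFRSF17, the plasma cell receptor BCMA, had 8.15, 10.6 and 9.89 kb in knockout against 6.76, 6.23 and 5.78 kb in scramble libraries (0.52, adjusted p = 0.03). TNFRSF21, a death-domain receptor, had 2.59, 3.36 and 3.83 kb in knockout against 8.85, 7.14 and 6.21 kb in scramble libraries (-1.11). The TNFRSF17 call ended with only the 6 DMSO libraries (0.51), after centring on neighbours (adjusted p = 0.056), without knockout library 2 (0.42) or 3 (0.55) and without scramble library 1 (0.53) or 3 (0.48). With only the stronger peaks TNFSF10 (0.10) and TNFRSF21 (-0.66) did not pass either.

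Called windows of the C/EBPβ and NF-κB lists were mostly higher, beside 7.32% called in either direction over all windows. The list of genes linked to C/EBPβ had 4 higher and 1 lower of 26 (19.2%), and the NF-κB list 4 higher and 1 lower of 33 (15.2%). CCL3 was counted in both lists and in that of chemokines, so their counts are not separate. The higher windows of the C/EBPβ list included that of BCL2, an antiapoptotic gene. The window of CCL3 had 3.05, 2.75 and 3.27 kb in knockout against 0, 0 and 0.290 kb in scramble libraries (2.65), and that of IL1RN 4.61, 4.56 and 6.48 kb in knockout against 0.892, 0.886 and 0.746 kb in scramble libraries (2.10). CD40LG, a ligand that activates B cells, had 2.05, 1.55 and 2.12 kb in knockout against 0.367, 0 and 0 kb in scramble libraries (2.10). CCR6, a chemokine receptor of lymphocytes, had 7.26, 7.11 and 6.58 kb in knockout against 3.78, 2.73 and 2.86 kb in scramble libraries (1.01). NFKB1 was the lower member of the NF-κB list, with 2.29, 1.70 and 2.63 kb in knockout against 4.60, 4.94 and 5.45 kb in scramble libraries (-1.05), and CD14, the lipopolysaccharide co-receptor, the lower member of the C/EBPβ list (-0.86). Chemokine and receptor genes had 3 higher and 0 lower of 30 (10%). Interferon-stimulated genes had 3 higher and 0 lower of 36 (8.33%), a share near the 7.32% of all windows. IFITM3 had 2.5, 4.55 and 4.15 kb in knockout against 1.18, 1.30 and 1.19 kb in scramble libraries (1.23), a call that ended without knockout library 2 (1.04). With only the stronger peaks the CD40LG window did not pass (1.37), and without scramble library 3 that of CD14 did not (-0.78).

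**Figure D5:**
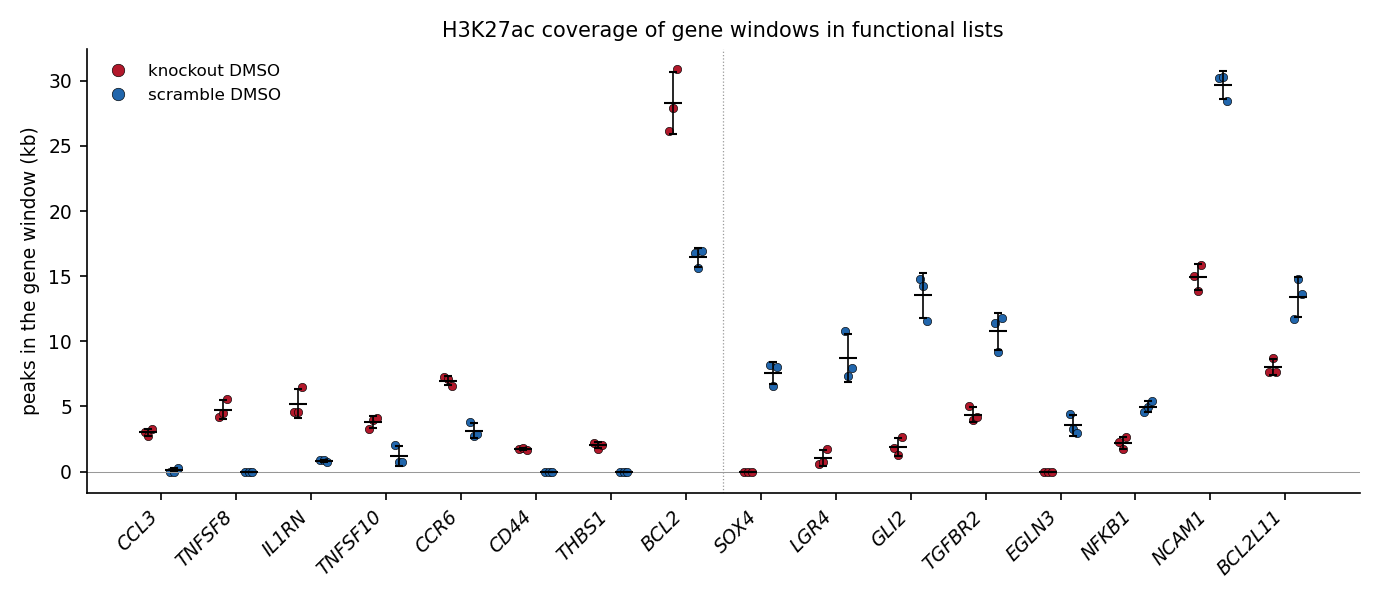
Kilobases covered by peaks in the window of 16 genes of the functional lists. Points are libraries (knockout DMSO left, scramble DMSO right within each gene), and bars are means with SD (n = 3 each). The 8 genes on the left were higher in knockout and the 8 on the right lower, all chosen from called windows.

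Apoptosis and plasma cell genes changed at single members. BCL2 had 26.1, 27.9 and 30.9 kb in knockout against 16.8, 15.6 and 16.9 kb in scramble libraries (0.84 ± 0.11 SE, adjusted p = 0.00048), but the call did not pass after centring on neighbours (0.47, adjusted p = 0.057). BCL2L11, which encodes the proapoptotic protein BIM and is a glucocorticoid-induced gene, had 7.68, 8.76 and 7.62 kb in knockout against 11.7, 14.8 and 13.7 kb in scramble libraries (-0.75, adjusted p = 0.0076). These were the only calls among 15 BCL2 family windows. In the plasma cell list 2 of 35 were higher, TNFRSF17 and CD28 (0.42), and NCAM1 was lower, with 15.0, 13.9 and 15.9 kb in knockout against 30.2, 30.3 and 28.5 kb in scramble libraries (-0.93). IL6R, the receptor of interleukin 6, had 21.5, 21.9 and 26.2 kb in knockout against 17, 14.5 and 15.6 kb in scramble libraries (0.54, adjusted p = 0.0018), the only call among 36 cytokine and growth factor receptor genes. The CD28 call ended under 10 alternatives, among them centring (adjusted p = 0.054), the 6 DMSO libraries alone (adjusted p = 0.095) and leaving out knockout library 1 (0.42) or 2 (0.37) or scramble library 2 (0.44) or 3 (0.34). With libraries cut to an equal covered length, BCL2L11 (-0.29) and IL6R (0.17) did not pass.

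The unfolded protein response had 4 higher and 1 lower window of 23 (21.7%), while its median was 0.01, that of all genes. DNAJC3, an ER co-chaperone that inhibits the kinase PERK, had 3.73, 5.68 and 7.62 kb in knockout against 3.29, 2.08 and 2.21 kb in scramble libraries (0.96). EIF2AK3, which encodes PERK, was higher by 0.92. ERN1, which encodes the sensor IRE1, was called higher (0.38, adjusted p = 0.0092) although its groups overlapped, with 34.1, 34.4 and 35.9 kb in knockout against 35.2, 29.0 and 28.8 kb in scramble libraries. DNAJB9, an ER chaperone that restrains IRE1, was lower, with 2.43, 2.27 and 2.13 kb in knockout against 4.47, 3.31 and 4.55 kb in scramble libraries (-0.74). With only the stronger peaks DNAJB9 had 0.01. The DNAJC3 and DNAJB9 calls ended after centring on neighbours, that of DNAJC3 also without knockout library 2 (0.91) or 3 (0.80) or scramble library 2 (0.93) or 3 (0.90), and the ERN1 call without normalisation (0.17). EIF2AK3 did not pass without knockout library 1 (0.79) or 2 (0.93) or scramble library 3 (0.97). With only the 6 DMSO libraries the DNAJC3, DNAJB9, EIF2AK3 and ERN1 calls all ended. Of 34 secretory pathway genes only STT3B, an oligosaccharyltransferase subunit, was called, and it was lower (-1.08), in a block of chromosome 3 with a median of -0.20.

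Wnt, Notch and Hedgehog genes had 0 higher and 4 lower windows of 47, a called share of 8.51% that is near the 7.32% of all windows. LGR4, an R-spondin receptor, had 0.612, 0.725 and 1.74 kb in knockout against 10.8, 7.35 and 7.93 kb in scramble libraries (-2.66), and GLI2, the Hedgehog effector, 1.80, 1.24 and 2.64 kb in knockout against 14.8, 14.3 and 11.6 kb in scramble libraries (-2.60). WNT7A (-1.77) and TCF7L2 (-0.61) were the other two. HOX and homeobox genes had 0 higher and 4 lower of 29, with MEIS1, a HOX cofactor, at -1.26, IRX5 at -0.57, and HOXC4 and HOXC6 at -0.85 from the same peaks. The HOXC calls ended without knockout library 3 (-0.76) or scramble library 2 (-0.74) or 3 (-0.80), and those of TCF7L2 and IRX5 without most single libraries (-0.67 to -0.49 and -0.63 to -0.48). TGF-β and BMP genes were divided, with 3 higher and 3 lower of 36. TGFBR2, the type II TGF-β receptor, had 5.04, 3.95 and 4.15 kb in knockout against 11.4, 9.16 and 11.8 kb in scramble libraries (-1.25), whereas the type I BMP receptors BMPR1A (1.71) and BMPR1B (1.99) were higher in knockout, though neither without knockout library 2 or 3. SOX4, a progenitor transcription factor, had 0 kb in knockout against 8.15, 6.56 and 8.00 kb in scramble libraries (-3.99), and LMO2, a haematopoietic cofactor, had 1.06, 1.29 and 1.22 kb in knockout and 0 kb in scramble libraries (1.72), though not with only the stronger peaks (0.65).

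Adhesion, matrix, channel and metabolic genes changed one member at a time. CD44, the hyaluronan receptor, had 1.70, 1.79 and 1.65 kb in knockout and 0 kb in scramble libraries (2.10), and THBS1, a matricellular protein, 2.23, 1.76 and 2.06 kb in knockout and 0 kb in scramble libraries (2.27). ITGB7, the β7 integrin expressed in myeloma, had 16.2, 16.9 and 16.4 kb in knockout against 12.9, 11.8 and 12.4 kb in scramble libraries (0.37), a call that ended without knockout library 1 or 2 or any 1 scramble library (0.32 to 0.39). RYR2 had 3.13, 3.40 and 2.73 kb in knockout against 73.8, 54.1 and 57.8 kb in scramble libraries (-3.91), and CACNB2, a calcium channel subunit, 17.6, 10.9 and 18.8 kb in knockout against 3.02, 0.442 and 0 kb in scramble libraries (3.71). EGLN3 had 0 kb in knockout against 4.46, 3.28 and 2.95 kb in scramble libraries (-2.97). DNMT3B, a de novo DNA methyltransferase, had 2.13, 2.53 and 2.57 kb in knockout against 5.49, 7.19 and 7.42 kb in scramble libraries (-1.32), though not with only the stronger peaks (-0.26). The related DNMT3A was higher (0.51), but not after centring on neighbours (0.19, adjusted p = 0.4).

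Other functions had no called window. None of 33 cell cycle genes, 33 cholesterol and fatty acid genes, 31 proteasome subunits, 30 housekeeping genes and 7 C/EBP family genes passed with limma. Before adjustment 3409 of all windows had a p under 0.05. In 4 of these lists the smallest adjusted p-values were 0.12 for CDKN1A, 0.23 for PSMC2, 0.099 for YWHAZ and 0.23 for DDIT3. The CEBPB window had 4.66, 4.36 and 5.29 kb in knockout against 5.14, 5.56 and 6.14 kb in scramble libraries (-0.25 ± 0.14 SE, adjusted p = 0.37). The lists of markers of other cell types had 1 call each: CD2 (1.46) of the T cell list and ACTA2 (0.73) of the stromal list were higher, and CD14 of the myeloid list and CD83 (-0.98) of the mature B cell list were lower. The CD2 and CD83 calls each ended without several single libraries (1.14 to 1.44 and -1.10 to -0.75). Summed over each list, T cell markers had 72.6 to 86.3 kb in knockout against 62.7 to 77.5 kb in scramble libraries and myeloid markers 57.7 to 69.9 kb in knockout against 59.4 to 64.6 kb in scramble libraries. Mature B cell markers had 81.3 to 88.7 kb in knockout against 82.1 to 94.9 kb in scramble libraries, and stromal and epithelial markers 55.8 to 59.9 kb in knockout against 49.5 to 61.2 kb in scramble libraries. These ranges overlap, and their part in the results was not tested.

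The same contrast under dexamethasone, which compared the other 6 libraries, mostly had the same direction. Both contrasts came from the same limma fit and shared its residual variance, and the regions were chosen on the libraries of both treatments. A region with a small variance is thus favoured in both contrasts. The shares called again below are therefore not an independent check of the DMSO calls. Of the promoters called under DMSO, 88.2% of the higher and 96.1% of the lower had the same sign under dexamethasone, and 53.4% of the higher and 70.9% of the lower were called there in that direction, where 2.71% of all promoters were called higher and 5.07% lower. Of the intragenic calls 59.3% of the higher and 63.8% of the lower were called again, with backgrounds of 6.38% and 5.73%. For distal calls the shares were 62.9% of the higher and 64.4% of the lower, with backgrounds of 8.76% and 9.05%. Only 10 of the 7266 called regions were called in the opposite direction. RMDN2 had 2.77 and PARP11 -3.15 under dexamethasone. Some immune and lymphoid calls had small differences there: IKZF1 had 0.13, CXCL8 0.45, HLA-DOB 0.46, and the CD44 window 0.44 with an adjusted p of 0.4. The windows of TNFRSF17 (0.0067, limma adjusted p = 0.99), BCL2L11 (-0.17, adjusted p = 0.59) and STT3B (-0.28, adjusted p = 0.39) did not pass there either. The HLA-DOB window had -0.067. For these genes the difference between the treatments did not pass its own test.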

How the data were processed

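H3K27ac was measured by CUT&RUN in 12 libraries of RPMI 8226 cells, of which the 3 knockout and 3 scramble libraries under DMSO are compared here. The submitters' processing notes name the build hg38, the aligner Bowtie2 2.4.2 and the peak caller MACS3 3.0, and the deposited files hold 1 peak list per library. Options and a control library are not given in the sources used here. The deposited files are broad peak lists whose positions, a unit recorded as other, are 0-based, and the score column was deposited by the authors and used nowhere. Column 7 is, as deposited, the fold enrichment of a peak over background, a ratio. The deposited −log10 p was not used, and the deposited −log10 q served 1 alternative.

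Only chromosomes 1 to 22 and X entered, which left out 229 to 296 peaks of each DMSO library. Regions were the stretches of at least 200 bp covered in at least 2 of the 12 libraries, tested where at least 3 libraries had a peak. Region values, log2(mean fold + 1), and gene windows, log2(bp + 500), were quantile-normalised and fitted with limma 3.58.1 (trend and robust, 4 group means, 8 residual degrees of freedom) in R 4.3.3. The Benjamini-Hochberg adjustment ran over all 59557 regions or all 17155 windows, with 0.05 as the threshold for an adjusted p. Tables were made in pandas 2.3.3 and NumPy 2.4.6 under Python 3.11.15, exact tests in SciPy 1.17.1, and plots in Matplotlib 3.10.9. Of 19974 protein-coding genes 4162 had no strand, and for these either end counted as the start. Exons and introns were not separated. The tests were tested on simulated data with 200 changed rows: of regions changed by 1 and 2 in log2, 31% and 50% were recovered, with 2 false calls, and of gene windows 54% and 94%, with 8.

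The comparison, its lists and the tests were chosen with earlier results of these data known. The text names the 6 largest non-overlapping called regions per class and direction, 1 per gene, the called members of each list (the 3 of smallest p where there were more, otherwise the member of smallest p) and CEBPB. One gene that this rule names is not reported here. Alternatives concerned normalization, filters, constants, peak strength, window size, promoter distance, position and single libraries.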

Additional observations from a re-analysis of the deposited data

Results flagged for a closer look

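For 13 of the regions called under DMSO and for 1 gene window, the difference between knockout and scramble was not the same under DMSO as under dexamethasone by limma's interaction test (adjusted p under 0.05 over all regions or windows). The interaction is the log2 difference under DMSO minus that under dexamethasone. In all, 21 regions and 2 windows passed that test, the other 8 regions and the NNMT window not being called under DMSO.

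TNFSF8, which encodes the CD30 ligand, had a window difference of 3.31 under DMSO and 1.16 under dexamethasone (interaction 2.15, adjusted p = 0.0017). Under dexamethasone its window held 5.20, 6.14 and 6.23 kb in knockout against 2.27, 2.04 and 2.31 kb in scramble libraries, while under DMSO it held 4.17, 4.49 and 5.58 kb in knockout and 0 kb in scramble libraries. An intragenic region of KMT5B, a histone H4 lysine methyltransferase, was higher under DMSO (1.56) and had -1.61 under dexamethasone (interaction 3.17). An intragenic region of CD180, a toll-like receptor homologue of B cells, had -2.16 under DMSO and -0.25 under dexamethasone (interaction -1.91).

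Intragenic regions of TPD52 (1.96), RNF144A (2.15), BMPR1B (1.84), MTUS1 (1.68), RCBTB2 (1.64) and TXLNB (0.82) had these interactions, each with the higher difference under DMSO. The intragenic regions of PARD3B (-0.92) and ADAM23 (-1.66) were called lower under DMSO and had differences of 0.18 and 0.74 under dexamethasone. The RGS22 region (-2.08) was higher under DMSO by 0.81 and under dexamethasone by 2.89. Among distal regions, one near RFC3 had -1.64, with -1.84 under DMSO and -0.21 under dexamethasone, and one near RABL2B had 0.72, with 0.56 under DMSO and -0.16 under dexamethasone.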

How the results depend on the processing

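Counts of calls stayed within 1.5 times of those reported except as follows. With only peaks of −log10 q of at least 2, lower calls numbered 1021 at intragenic and 1154 at distal regions. Centring each region on its neighbours gave 632 higher and 677 lower promoters, and windows of 100 kb gave 1213 higher and 1221 lower. Leaving out single libraries gave 260 to 364 higher and 245 to 371 lower promoters, 1284 to 1633 and 1303 to 1615 intragenic regions, 1165 to 1490 and 1487 to 1775 distal regions, and 449 to 640 and 438 to 588 gene windows. In these leave-outs 68.1% to 92.5% of promoter calls were still called, against 51.6% to 98.4% under the other alternatives. For intragenic calls the shares were 70.5% to 93.7% against 51.2% to 97.3%, for distal calls 73.2% to 93.9% against 54.4% to 97.8%, and for gene windows 65.2% to 91.5% against 54.1% to 97.2%.

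Directions turned for the following, of which the BIRC3 promoter and the DNAJB9, KCNK5, SPRY4, MAFK and MT2A windows had been called, and the cause was not tested. With only stronger peaks the difference in covered share was -0.266 points at promoters and 0.919 at intragenic sites (exact p = 0.9 and 0.3), DDIT3 had -0.12 and DNAJB9 0.0053. The intragenic share difference ranged over leave-outs from -1.11 to 0.202, the positive value without scramble library 1. With libraries cut to an equal covered length KCNK5 had -0.13 and SPRY4 -0.32, against 1.79 and 0.92 as fitted. The BIRC3 promoter had 0.39 when centred and 0.30 by share of region covered. The CEBPB promoter had 0.11 when centred and 0.0508 by share of region covered, and the CEBPB window 0.0149 when centred and 0.0157 with 5 kb. MAFK had 0.0884 with 5 kb (-0.45 as fitted), and MT2A 0.12 with 100 kb (-1.26 as fitted). Over the 161 named regions and windows, 3381 recomputed values kept direction and side of the threshold, 377 kept direction but did not pass, 3 came to pass and 12 turned. Regions built from bases covered in at least 1 library gave counts only.

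Libraries with the same replicate number did not deviate together beyond the limit set for pairing: the correlations were 0.042, 0.031 and 0.0094 over regions and 0.0695, 0.0502 and 0.0705 over gene windows, although each library correlated best with its own number. With the replicate block, 332 higher and 313 lower promoters, 1525 and 1510 intragenic regions, 1427 and 1692 distal regions and 584 and 564 gene windows were called. Of the named items, the CCL5 promoter (adjusted p = 0.065) and the windows of CD28, CD83, IRX5, TNFRSF17, MX2, ASNS, DTX3L, HLA-E, MAFK and SHMT2 (adjusted p = 0.051 to 0.095) no longer passed with the block. With only the 6 DMSO libraries, the promoter calls of BIRC3, CEBPD, CXCL8, IKZF1 and IL1RN and the distal call of BCL2A1 ended, among others. So did the window calls of CD2, CD14, CD28, CD83, BMPR1B, DNAJB9, DNAJC3, DNMT3A, EIF2AK3, ERN1, HOXC4, HOXC6, IRX5, ITGB7, TCF7L2 and TNFRSF17. Depth is unknown, so a peak absent from a list cannot be told apart from one under the caller's threshold in a shallower library.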

Other observations

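Zinc finger (ZNF) genes, most of which encode KRAB-type repressors of transposable elements and gene promoters, were not among the gene lists and were counted after the largest losses had been seen. Of 398 tested ZNF promoters 9 (2.26%) were higher and 23 (5.78%) lower in knockout, beside 3.36% and 3% of all promoters. On chromosome 19, where many of them cluster, 5 of 202 (2.48%) were higher and 15 (7.43%) lower, beside 1.55% and 3.33% of the 840 promoters tested on that chromosome. Of the lower ones, ZNF486, ZNF85, ZNF100, ZNF43, ZNF729, ZNF492, ZNF728 and ZNF254 lie in the block at 20 to 30 Mb. The higher ZNF675 lies there too. That block had 22 lower and 4 higher calls among 123 regions of all classes, so these promoters are neighbours and not independent. ZNF254, ZNF284, ZNF441, ZNF492 and ZNF729 were listed at 0 in all knockout libraries. ZNF85 had 3.01, 4.26 and 2.94 in knockout against 7.87, 8.71 and 8.86 in scramble libraries (log2 difference -1.12), so its mark was weaker but listed in both. Reads from such similar genes can be misassigned, and the values are uncertain to that extent.

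Some genes of related function had opposite promoter calls, and these were chosen after their values were seen. ULBP1 and ULBP3 both encode ligands of the natural killer cell receptor NKG2D. ULBP1 had 3.36, 4.57 and 3.07 in knockout and 0 in scramble libraries (2.19), while ULBP3 had 0 in knockout libraries against 1.49, 1.47 and 2.23 in scramble libraries (-1.31). The ULBP3 call ended without the filter on regions (-1.22), with only the stronger peaks (-0.34), after centring on neighbours (-0.98), without scramble library 3 (-1.16) and by the share of the region covered (-2.21). Among growth factors, FGF2 was higher (1.95), and EGF (-1.90) and FGF5 (-2.17) were lower, EGF not with only the stronger peaks (-0.74). SH2D1A, an adaptor of SLAM family receptors, and LY9, a member of that family, were both higher (2.15 and 2.08). NLRP3, the inflammasome sensor, was listed at 0 in knockout libraries, against 3.56, 3.22 and 3.19 in scramble libraries (-2.11), in contrast with the higher IL1B promoter. No test was made of these pairs.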
